A study of Mus musculus with 2 samples.

Results

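The core genes of macroautophagy were compared between the pancreas of mice whose dams had gone without threonine for a short stretch of pregnancy and that of control offspring. The list held 36 genes, named for their place in the pathway; the list was drawn up with earlier results of these data known. Of these, 35 had a probe set with a single gene symbol, among 18193 such genes in all, and each was read by the brightest of its probe sets. Optn, an autophagy receptor, had none and was not analysed here. Signals under a floor of 264.9, the 60th percentile of the array where that percentile was higher, were not told apart from background. 34 members lay above it on at least 1 array, 32 of them on both. Atg101, a partner of ATG13 in the initiation complex, was below the floor on both arrays, with a signal of 206 in control offspring and 82.3 in the others, and no ratio is given for it.

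Each group was 1 pool of total RNA from the whole pancreas of 10-week-old males, read on 1 Affymetrix Mouse Genome 430 2.0 array. Signals are given throughout as a pair, the control pool first and the threonine-deficient pool second, and log2 ratios as the second over the first. C57BL/6J dams received either control diet or threonine-deficient diet from embryonic day 12.5 until day 14.5. Offspring of both groups were weaned at 3 weeks and then ate control diet, so that none was itself deprived after birth. With 1 pool per group no difference has a replicate check, no p-value is given, and how many animals went into a pool is not stated in the sources used here.

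Autophagy encloses cytoplasm in a double membrane and delivers it to the lysosome. The ULK1 kinase complex starts the process, the class III phosphatidylinositol 3-kinase complex built on Beclin 1 marks the membrane, and ATG9 and ATG2 supply lipid to it. A ubiquitin-like conjugation machinery then attaches the ATG8 proteins, LC3 and GABARAP, to phosphatidylethanolamine, and receptors such as p62 tether cargo to them. Acinar cells, which make up most of the pancreas, are among the cells in which autophagy is known to clear zymogen granules and worn organelles. Transcription of many of these genes is driven by TFEB, which binds an E-box at its target promoters.

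That E-box has the core CACGTG, which reads the same on both strands. It was searched for in RefSeq promoter windows of build GRCm38.p6, each running from 250 bases before to 50 after an annotated start. 29 measured members had such a window, and 4 of them (13.8%) held the core, against 8.09% of the 27025 genes with a window. 3 of the 4, Atg3, Atg5 and Atg7, encode parts of the conjugation machinery, and the other, Atg14, belongs to the lipid kinase complex. The longer form TCACGTGA, which contains the core, was present in 1 member, Atg3, and in 1.12% of all genes. The windows around these matches are shown, with the core in capitals, because TFEB is itself on the list and binds this core. Below them stand the last 80 bases before the start of Atg4d, the member above the floor with the largest difference between the arrays, whose window did not hold the core. All are written 5′ to 3′ in the direction of the gene.
Atg3, chr16:45158708-45158790, plus strand: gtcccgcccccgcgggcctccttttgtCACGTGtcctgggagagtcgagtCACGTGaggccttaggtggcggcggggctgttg
Atg5, chr10:44268298-44268357, plus strand: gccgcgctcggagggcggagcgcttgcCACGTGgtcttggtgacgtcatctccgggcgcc
Atg7, chr6:114670937-114670996, plus strand: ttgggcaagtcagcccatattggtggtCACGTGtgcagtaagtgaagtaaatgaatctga
Atg14, chr14:47568415-47568462, minus strand: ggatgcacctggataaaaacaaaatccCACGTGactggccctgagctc
Atg4d, chr9:21265205-21265284, plus strand: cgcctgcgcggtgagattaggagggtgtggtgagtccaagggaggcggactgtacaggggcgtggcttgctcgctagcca
The core began 94 and 71 bases before the annotated start in Atg3, 132 before it in Atg7, 14 in Atg5 and 1 in Atg14. A match of letters is not a measured binding site.

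The arrays were near each other in level but not alike over the whole range of signal. Their 45037 probe sets other than controls had median signals of 164.7 and 183.8, with 37.7% and 40.0% above the floor. Among the 1038 other genes at least as bright as the dimmest ATG8 gene, 64.4% had negative log2 ratios, against 49.9% of all genes above the floor. The pancreatic label held: 5 of 8 acinar markers were measured, all were above the floor, and Cpa1, a carboxypeptidase of acinar cells, stood at 168872 and 173591. The summed signal of the acinar markers was 1.10 times the control in the threonine-deficient pool. Their signals lay between 145070 and 262788, where the array maxima were 263446 and 275999. Whether ratios so near the top compare with those of dimmer markers was not tested. By summed signal, several other cell types differed more. The 6 measured adipocyte markers summed to 42481 and 23074 (0.54 times the control, all 6 lower), the 6 islet markers to 0.82 times, with all 6 lower, and the 5 measured B and plasma cell markers to 0.66 times. In that last list the plasma cell genes Jchain (−0.79) and Mzb1 (−1.12) were lower, while the B cell genes Cd79b (0.04) and Ms4a1 (0.08) were level. The 6 endothelial markers summed to 1.30 times the control, with all 6 higher and a median log2 ratio of 0.36. The 6 macrophage markers summed to 1.06 times, a sum weighted by the bright Lyz2 (−0.43), while the other 4 above the floor were higher, for a list median of 0.38. The 6 stellate cell and fibroblast markers summed to 0.999 times, with 2 of 4 above the floor higher. Of the 4 measured duct markers, which summed to 1.29 times, Krt7 and Cftr were below the floor on both arrays. Also below it on both were Cd14 of the macrophage, Cd79a of the B cell and Col1a1 and Pdgfrb of the fibroblast markers, and no marker measured was at 0. The part these shifts in cell markers have in the autophagy values was not tested, and in whole tissue fewer cells of a type and less RNA per cell cannot be told apart.

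By median and by count of signs, the autophagy genes showed no shift as a group between the pools. Their median log2 ratio was 0.00 over 34 members, with 17 members positive and 17 negative. Over all 10758 genes above the floor on at least 1 array the median was also 0.00, and 49.9% were negative. The summed signal of the measured members, which is weighted by the bright ones, was lower, at 102764 and 94080. That is 0.916 times the control, beside 0.993 times for all measured genes. 30 members, or 88.2%, lay within 1.5-fold, against 87.4% of all genes. In members and all genes alike, a ratio with 1 signal under the floor is a bound and was counted at that value. At least 1.5-fold lower were 3 members, Atg4d, Atg4a and Atg7, beside 5.36% of all genes, and 1 member, Atg16l1, was at least 1.5-fold higher, beside 7.20% of all genes. Atg4d alone passed 2-fold, as did 2.16% of all genes in either direction, where 0.874% of all genes were at least 2-fold lower and 1.28% at least 2-fold higher. The share of members past 1.5-fold is thus close to that of all genes. All 4 such members encode parts of the conjugation machinery, and whether that step differs from the others was not tested.

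**Figure D1:**
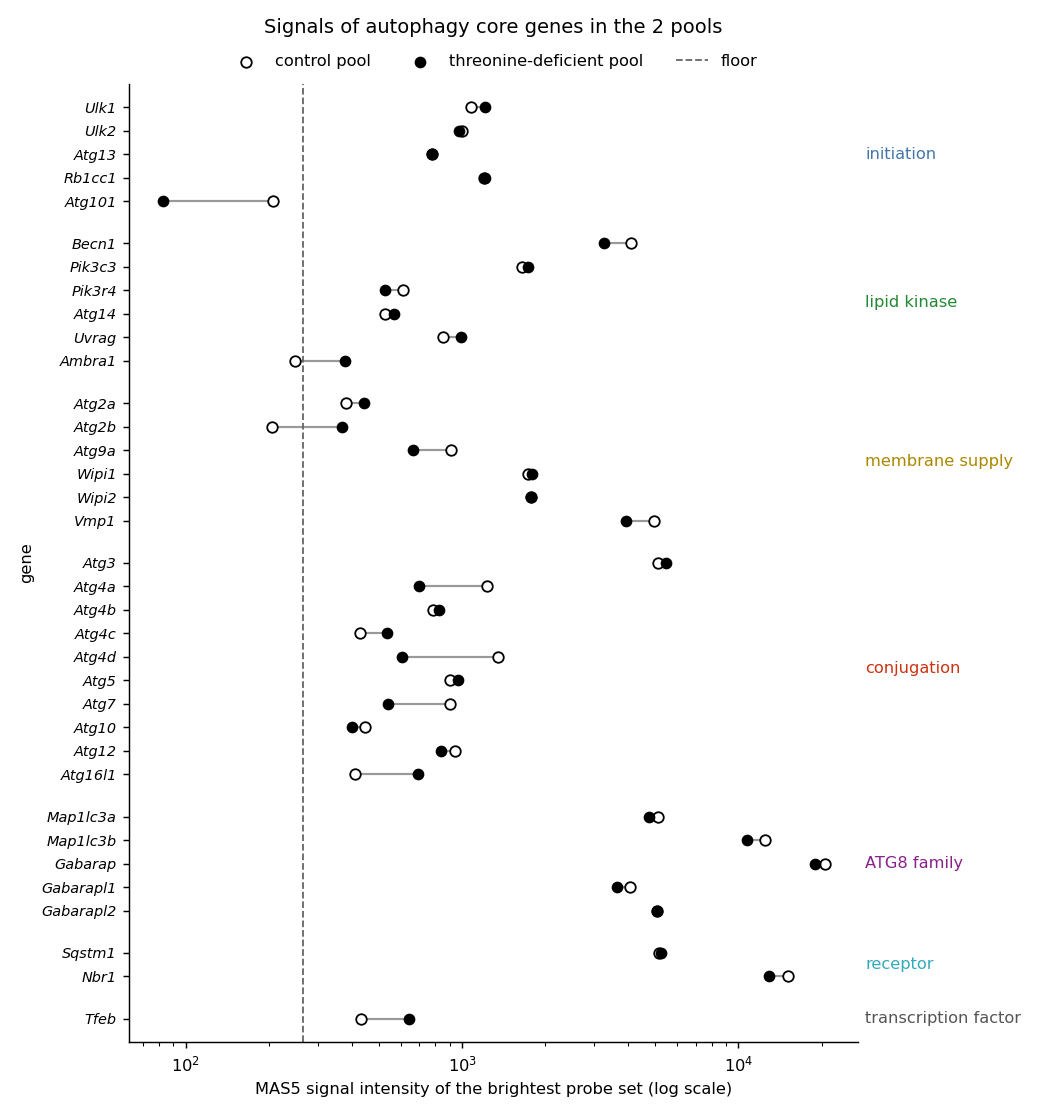
MAS5 signal intensity (horizontal, log scale) of the brightest probe set of each of 35 autophagy genes, grouped by step, in the control pool (open circles) and the threonine-deficient pool (filled circles). The dashed line is the floor at 264.9. The widest gaps above the floor on both arrays are those of Atg4d, Atg4a, Atg16l1 and Atg7, all in the conjugation step; signals of different genes come from different probes and are not to be compared with each other.

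For the error of a single value, repeat readings of a gene by different probe sets took the place of replicates. In 4251 genes the brightest 2 probe sets above the floor could be paired, with a standard deviation per probe set of 0.37 on the log2 scale, and 52.1% of the pairs had the same sign. For the 1063 pairs with the brightest second readings, the standard deviation was 0.23. For the other pairs, in sets from the dimmest second readings up, it was 0.41, 0.45 and 0.37. Over the 17 autophagy genes with a pair above the floor it was 0.29, and 12 pairs had the same sign. A second measure was the spread of the log2 ratios of the 200 genes nearest in signal, as a scaled median absolute deviation. The first covers noise that differs between probe sets of a gene, with any real difference between the transcripts they read. Error that the probe sets of a gene share on an array cancels in it. Signals under the floor were raised to it before pairing, which can shrink the standard deviation of dim pairs. The second holds any difference between the pools in the genes of like signal as well, and neither gives the variation between animals of a group.

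The initiation genes lay close to 0 on the log2 scale. Ulk1, the kinase that receives signals from mTORC1 and AMPK, was at 1077 and 1206, a log2 ratio of 0.16, with 0.06 in its other probe set. Ulk2, its paralogue, stood at 1002 and 971, and its 3 probe sets above the floor gave −0.04, −0.01 and −0.16, the last a bound because its second signal lay under the floor. Atg13, the regulatory subunit, stood at 780.1 and 775, with 0.22 in a dimmer probe set. For Rb1cc1, which encodes the scaffold FIP200, the signals were 1197 and 1208, with 0.25 in a dimmer probe set. The 4 members above the floor had a median log2 ratio of 0.00 and ranged from −0.04 to 0.16, all well inside the spread of 0.28 to 0.37 of genes of like signal.

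The lipid kinase complex had a median of 0.09 over 6 members, with 4 positive and 2 negative. Pik3c3, the catalytic subunit VPS34, was at 1649 and 1726 (0.07). Pik3r4, its regulatory subunit VPS15, was at 612 and 524 (−0.22). The subunits that set apart the alternative forms of the complex were both slightly higher, Atg14, of the form that acts at the forming autophagosome, at 526 and 566 (0.10) and Uvrag, of the form that acts on endosomes, at 853 and 988 (0.21). None of these 4 differences exceeded the spread of genes of like signal, and each gene had 1 probe set. That of Pik3r4 was of a kind that can be shared between transcripts (suffix _s_at) and that of Pik3c3 of a kind that can read several transcripts of a gene (suffix _a_at).

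Becn1, which encodes Beclin 1, the scaffold that joins these subunits, gave readings in opposite directions. Its brightest probe set, also of suffix _s_at, was at 4099 and 3276 (−0.32, with a spread of 0.20 around a local median of −0.09). The next brightest, which has no such suffix, went from 1935 to 2134 (0.14). Of the dimmer ones, 1 was under the floor in control offspring (0.50, a bound) and 1 in the other pool (−0.34, a bound). With 2 readings up and 2 down, no direction can be given for Becn1. Ambra1, a positive regulator of the complex, had a control signal under the floor, at 248 and 376, at least 1.42-fold higher.

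Among the genes that bring membrane, the median was 0.03 over 6 members, with 4 positive and 2 negative. Atg9a, the lipid scramblase carried by the vesicles that seed the membrane, had the lowest value. It was at 912 and 664, a log2 ratio of −0.46 against a spread of 0.35, with 15 of 200 genes of like signal lower, and was read by 1 probe set. Vmp1, a scramblase of the endoplasmic reticulum whose induction is known from pancreatitis, was at 4950.1 and 3913. Its log2 ratio of −0.34 compares with a spread of 0.17, 11 of the 200 genes of like signal had a lower ratio, and its other probe set gave −0.11. Both readings of Vmp1 were lower, by different amounts.

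Atg2a and Atg2b, whose products transfer lipid into the growing membrane, were both higher. Atg2a was at 380 and 440.5 (0.21), and Atg2b at 205 and 366, the first under the floor, so at least 1.38-fold higher. Wipi1 and Wipi2 bind the phosphatidylinositol 3-phosphate that the kinase makes. The brightest probe sets had log2 ratios of 0.05 for Wipi1, at 1735 and 1795, and 0.00 for Wipi2, at 1768 and 1771. Dimmer probe sets of Wipi1 ranged from −0.25 to 0.70, the latter a bound, and a dimmer one of Wipi2 went from 355 to 595 (0.75). The readings of these 2 genes thus differed among themselves by more than the bright ones differed between pools.

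The conjugation machinery, the step with the most members, had the widest range of log2 ratios. Its 10 members ranged from −1.15 to 0.76, with a median of −0.04, 5 positive and 5 negative. The spread of genes of like signal was 0.31 to 0.50 for these members other than Atg3 (0.16). It was 0.12 to 0.21 for the brighter ATG8 family and 0.20 to 0.63 for the lipid kinase genes. The part of signal strength in the range of a step was not tested. 6 of the 10 were within 1.5-fold, while every member of the other steps that was above the floor was within it. The genes at the ends of this range belong to different parts of the machinery, as the plot of log2 ratios by probe set shows. None of the 4 past 1.5-fold remained so when a gene's probe sets were all used and their median taken, which gave −0.58 for Atg4d, −0.41 for Atg4a, −0.09 for Atg7 and 0.38 for Atg16l1. For Atg4d, Atg4a and Atg16l1 this is no second reading. Each has 2 probe sets, and the dimmer one, under the floor on both arrays, entered at a ratio of 0. Probe sets of Atg7 under the floor on both arrays entered at 0 as well. With the floor value added to each signal as a pseudocount instead, Atg4d had −0.89, Atg4a −0.64, Atg7 −0.53 and Atg16l1 0.51, and with the floor at the 75th percentile Atg16l1 had 0.43.

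**Figure D2:**
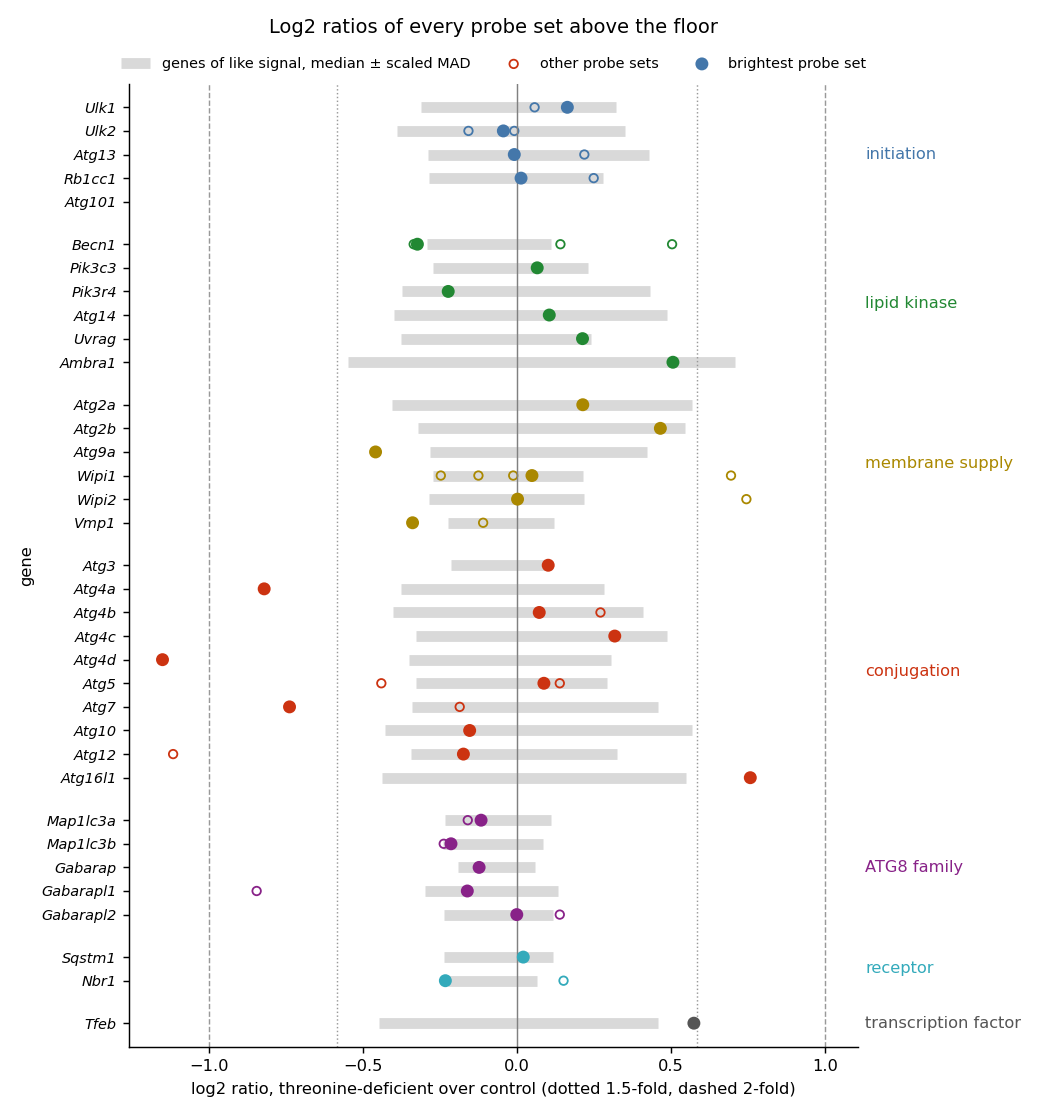
Log2 ratio of the threonine-deficient over the control pool (horizontal) for every probe set above the floor on at least 1 array, by gene and step; filled circles are the brightest probe set, open circles the others, and grey bars the median ± scaled median absolute deviation of the 200 genes nearest in signal. Atg4d, Atg4a and Atg7 lie left of the dotted 1.5-fold line and Atg16l1 right of it, and open circles of Atg12 and Gabarapl1 lie well left of the filled ones.

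ATG4 proteases trim newly made ATG8 proteins, so that they can be conjugated, and later cut them from the membrane. The 4 genes of the family went in different directions. Atg4d was at 1349.7 and 608, 2.22-fold lower. On the log2 scale this is −1.15 beside a spread of 0.33, and 0 of the 200 genes of like signal had a lower ratio. Atg4a, whose product acts mainly on the GABARAP branch, was at 1228 and 695, 1.77-fold lower, with a log2 ratio of −0.82 against a spread of 0.33 and 3 of 200 genes below it. Both genes were thus among the lowest of their signal class. Each rests on a single probe set, since the other one of each gene was below the floor on both arrays.

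Atg4b, which encodes the most active protease of the family, was at 784 and 824 (0.07), and its second probe set at 417 and 503 (0.27). Atg4c was at 427 and 533 (0.32). Neither exceeded the spread of 0.41 of genes of like signal.

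The E1, E2 and E3 enzymes of the ATG8 reaction are encoded by Atg7, Atg3 and the complex of Atg5, Atg12 and Atg16l1. Atg7, the E1 that activates both ATG8 and ATG12, was at 902 and 541, 1.67-fold lower. On the log2 scale this is −0.74 beside a spread of 0.40, with 6 of 200 genes of like signal lower, but its second probe set went from 505 to 444, a log2 ratio of −0.19. The readings of Atg7 shared a direction and not a size. Atg3, the E2 enzyme with 2 cores of the E-box, was at 5099 and 5471 (0.10), beside a local median of −0.06 and a spread of 0.16, with 172 of 200 genes lower.

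Atg16l1, which places the conjugation complex on the membrane, was at 409 and 692, 1.69-fold higher. On the log2 scale this is 0.76 beside a spread of 0.49. Of the genes of like signal 187 of 200 were lower, and its other probe set was below the floor on both arrays. Its partners in that complex were not higher to this degree. Atg5 was at 907 and 964 (0.09), with 0.14 in the next probe set and −0.44 in one of suffix _s_at. Atg12, the ubiquitin-like protein joined to ATG5, was at 944 and 836 (−0.17), while a second probe set went from 575 to 254, the latter under the floor, and so was at least 2.17-fold lower. Atg10, the E2 enzyme for ATG12, was at 445 and 400.2 (−0.15), within its spread of 0.50. Of the 3 members here with the E-box core, Atg3 and Atg5 had slightly positive ratios and Atg7 a negative one, and the fourth such gene, Atg14, had 0.10.

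The ATG8 family itself was slightly lower or level. Map1lc3b, which encodes LC3B, the usual marker of autophagosomes, was at 12474 and 10752. Its other bright probe sets went from 11483 to 9738 and from 9409 to 8095, so that the 3 readings gave log2 ratios of −0.21, −0.24 and −0.22. These 3 readings lay within 0.02 of each other, each lower by a factor of 1.16 to 1.18. Map1lc3a was at 5134 and 4736 (−0.12) in a probe set of suffix _x_at, which may likewise be shared, and had −0.16 in its other one. Gabarap was at 20551 and 18873 (−0.12), and Gabarapl2 at 5087 and 5085, level between pools.

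Gabarapl1, a close relative of Gabarap, was at 4049 and 3621 (−0.16) in a probe set of suffix _s_at. Its other probe set, without that suffix, went from 1304 to 726, a log2 ratio of −0.85. In all, 9 of the 10 ATG8 probe sets above the floor were lower, and the exception, of Gabarapl2, was a bound of 0.14. The family's median log2 ratio of −0.12 has to be read beside genes of the same brightness: over the 1038 other genes at least as bright as its dimmest member the median was −0.06, and 64.4% were negative. After removal of a trend of ratio on signal the family median was −0.07, with Gabarapl2 then positive, at 0.07. Against the 200 genes nearest in signal, none of the 5 members differed from the local median by more than the spread.

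**Figure D3:**
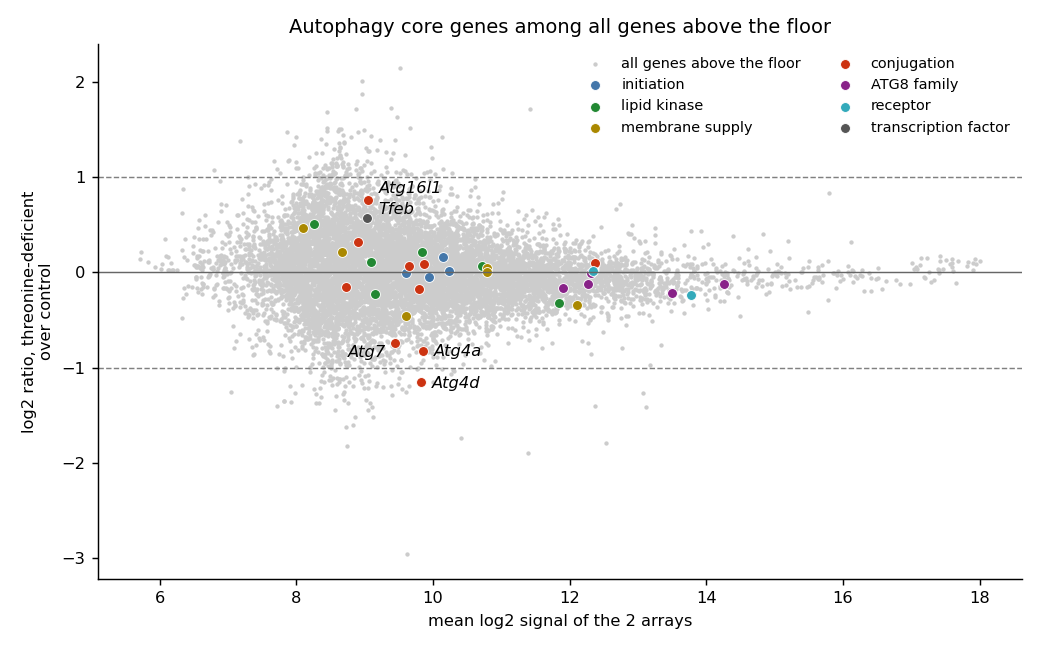
Log2 ratio of the threonine-deficient over the control pool (vertical) against the mean log2 signal of the arrays (horizontal) for all 10758 genes above the floor on at least 1 array (grey) and the autophagy genes (coloured by step); dashed lines mark 2-fold. Atg4d, Atg4a and Atg7 lie at the lower edge of the cloud and Atg16l1 and Tfeb towards its upper edge, while the bright ATG8 genes lie inside the narrow part of the cloud, just under 0.

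Of the receptors, Sqstm1, which encodes p62 and is itself consumed by autophagy, was level at the transcript, with 5163 and 5238 (0.02). The probe sets of both measured receptors above the floor had the suffix _a_at. Nbr1, a receptor of related structure, was at 15181 and 12921 (−0.23, where like genes had a median of −0.08 and a spread of 0.14). A dimmer probe set of Nbr1 had the opposite sign, at 1556 and 1728 (0.15). Tfeb was at 431 and 641, 1.49-fold higher and just short of 1.5-fold. Its log2 ratio of 0.57 compares with a spread of 0.45, 179 of the 200 genes of like signal were lower, and it had 1 probe set.

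Genes around the core pathway were described from 4 further lists, none of which had a member past 2-fold, with bounds counted at their value. Prkaa1 and Vps18 were under the floor in the threonine-deficient pool, so that their ratios are bounds. Each gene was read by its brightest probe set alone. Repeat readings were not compared here, though Tax1bp1 had 4 probe sets, Mtor and Zkscan3 3 each and Vps39 2. Of 18 further core genes and regulators above the floor, 7 were positive and 11 negative, with a median log2 ratio of −0.11 and none past 1.5-fold. Those of largest size were Mtor, the kinase that restrains ULK1, at 1111 and 1612 (0.54), Trp53inp1, a stress protein that binds LC3, at 8303 and 11457 (0.46), the kinase gene Dapk1 at −0.43 and Tecpr1, of autophagosome maturation, at −0.38.

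Of 16 selective autophagy receptors, 6 were positive and 10 negative (median −0.10). 1 was at least 1.5-fold lower, Tax1bp1, a receptor for ubiquitin-tagged cargo, at 4016 and 2661 (−0.59). Ncoa4, the receptor for ferritin, had −0.44, Calcoco1 −0.17 and Tex264, a receptor for the endoplasmic reticulum, −0.16. Of 14 genes for fusion with the lysosome, 5 were positive and 9 negative (median −0.07). Vps39, of the HOPS tethering complex, was 1.69-fold lower, at 688 and 407, and Snap29, Plekhm1 and Vamp7, which serve docking and fusion, had −0.49, −0.49 and −0.45.

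Of 6 transcriptional regulators beside Tfeb, 2 were positive and 4 negative (median −0.18). Zkscan3, described as a repressor of autophagy genes, was 1.65-fold lower, at 1119 and 678 (−0.72), in a probe set of suffix _s_at. Foxo1 had −0.47, Mitf, a relative of TFEB, −0.30 and Foxo3 0.24. Tfe3, the other relative on the list, had 0.07. The medians of all 4 lists were below 0. Over the 54 genes of these lists above the floor the median was −0.11, with 20 positive and 34 negative. Set against the median of the 200 genes nearest in signal, 34 of the 54 genes were lower, with a median difference of −0.07, and 16 of the 34 core genes were lower, with a median difference of 0.03. By list, this median difference was −0.19 for the further core genes and regulators and −0.03 for the selective receptors. For the fusion genes it was −0.06 and for the transcriptional regulators −0.20. Beyond these values, the part of signal strength in the list medians was not tested. The 3 members past 1.5-fold were 3 of 54 genes (5.56%), where 12.6% of all genes were past it in either direction.

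**Figure D4:**
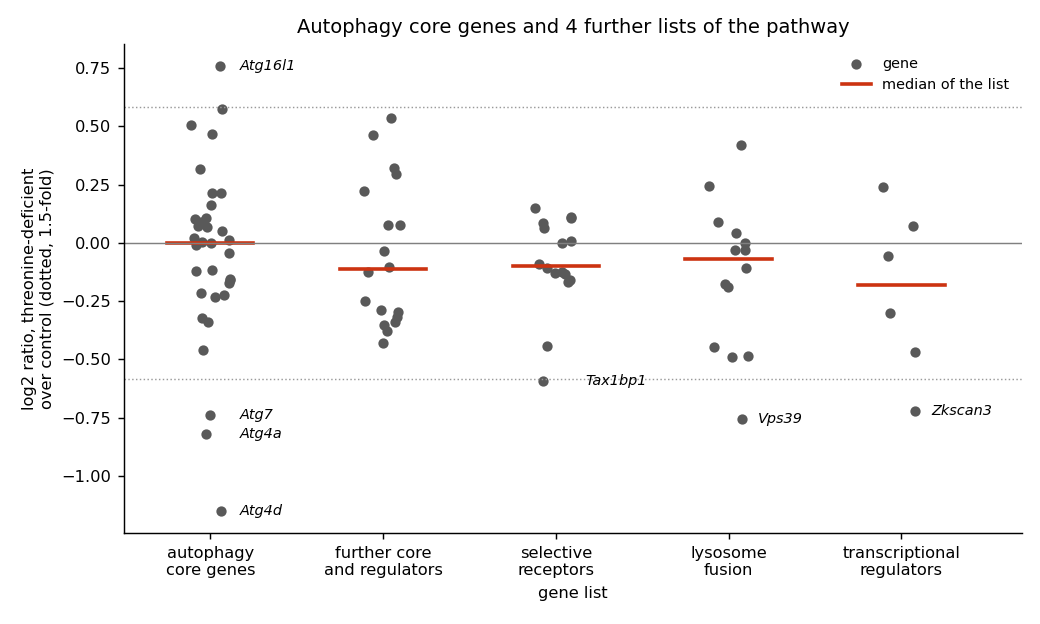
Log2 ratio of the threonine-deficient over the control pool (vertical) for each gene above the floor (points) in the autophagy core list and 4 further lists of the pathway (horizontal), with the median of each list (red line) and 1.5-fold (dotted lines). The core list is centred on 0.00 and reaches from −1.15 to 0.76, and the further lists have medians from −0.18 to −0.07, with Tax1bp1, Vps39 and Zkscan3 past 1.5-fold.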

How the data were processed

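The authors deposited 1 signal intensity for each probe set, on a linear scale, made with MAS5 per the submitters' processing notes (version not given in the sources used here), 1 pooled RNA per array. Their trimmed mean was 500.0 on both arrays, the mark of scaling by array, so total mRNA cannot be compared. Symbols came from the platform annotation, updated through gene identifiers to RefSeq (assembly GRCm38.p6). 34945 probe sets had exactly 1 symbol, of which 34741 matched; probe sets with several symbols named no gene. Signals under the floor were raised to it before log2, and a ratio with 1 signal at the floor is a bound. All 36 members were described; of each further list, the up to 4 members of largest absolute log2 ratio among those above the floor were named, and Tfe3 was added after its value was seen. The members and lists were chosen with earlier results of these data known. No test between diets was possible; the number of arrays limits the precision. Scripts used Python 3.11.15, pandas 2.3.3 and statsmodels 0.14.6 (loess) and were tested on simulated data. The planned comparison of ATG8 protein sequences was not run.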

Additional observations from a re-analysis of the deposited data

How the results depend on the processing

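The median of the autophagy genes stayed between −0.00 and 0.06 under 9 other settings and 1 more chosen after seeing the data (leaving out genes at the floor on 1 array). The count at least 1.5-fold higher, 1 as reported, was 3 with no floor and with the floor at the 50th percentile, and 0 with it at the 75th, with a pseudocount equal to the floor, and with the median over probe sets. The count at least 1.5-fold lower, 3 as reported, was 0 with the median over probe sets. Of all genes, 5.36% were that much lower as reported and 2.67% with the median over probe sets. By construction this median draws Atg4d (to −0.58), Atg4a (to −0.41) and Atg16l1 (to 0.38) towards the ratio of 0 of a probe set at the floor. The count past 2-fold, 1 as reported, was 2 with no floor, which brings in Atg101, and 0 with the pseudocount and with the median over probe sets. For all genes, the share past 2-fold was not computed under these settings. The membrane supply median was −0.17 with the floor at the 75th percentile. There it covered 4 members, whose ratios were unchanged, since Atg2a (0.21) and Atg2b (0.47, a bound) were below that floor. The receptor median, −0.11 as reported, was 0.15 with the second brightest probe sets and had no value without probe sets of suffix _s_at, _x_at or _a_at, since all of its probe sets above the floor end in _a_at. Apart from that of membrane supply, no step median moved by more than the probe set error divided by the square root of its number of members. Of 321 values of single members under these settings, 305 moved by less than the probe set error, 16 by more. The 305 are no measure of how well a value would repeat. No floor, the floor at the 50th percentile and leaving out genes at the floor on 1 array cannot change a member above the floor on both arrays. Centring on the median of all genes shifts every value by 0.001. Most of the 16 came with settings that change or combine probe sets. Of 34 members, 5 changed sign under at least 1 setting: Becn1 (−0.32 to 0.14), Nbr1 (−0.23 to 0.15), Wipi1 (−0.13 to 0.09), Atg13 (−0.02 to 0.22) and Gabarapl2 (−0.00 to 0.14). None of the 4 past 1.5-fold did, but Atg4d, Atg4a and Atg16l1 had no other probe set above the floor. No paired analysis was possible because each group had 1 pool.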

Other observations

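The members past 1.5-fold depended on which probe set read them. With the second brightest probe set in place of the brightest, where a gene had several, Atg12 (−1.12), Gabarapl1 (−0.85) and Wipi2 (0.75) were past 1.5-fold and Atg7 (−0.19) was not, and Atg4d, Atg4a and Atg16l1 gave no value because those probe sets were below the floor. Of the 17 members with several probe sets above the floor, 7 were lower in all of them, 4 were higher in all, and 6 had readings in both directions. Over all genes, 52.1% of the pairs of readings had the same sign, so agreement in many of the 17 carries little weight. The 7 were Ulk2, Vmp1, Atg7, Atg12, Map1lc3a, Map1lc3b and Gabarapl1, and the 4 were Ulk1, Rb1cc1, Wipi2 and Atg4b. The smallest spread between readings was that of Map1lc3b, 0.02 on the log2 scale over 3 probe sets, and the largest that of Atg12 and Wipi1, 0.94 each.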
